A study of Mus musculus with 21 samples.

Results

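The 10 genes described here are the keratins of the epidermis between hair follicles: Krt5, Krt14 and Krt15 of its basal layer, and Krt1, Krt10, Krt2, Krt77, Krt78, Krt80 and Krt90, grouped here with the layers above it. They were chosen by gene name, and all 10 were found among the 23713 genes of the deposited count table. RNA was sequenced in bulk from keratinocytes of mouse tail skin in 3 models of basal cell carcinoma (BCC), a tumour of the skin that arises through Hedgehog signalling. SmoM2 is a permanently active Smoothened, the membrane protein that turns this signalling on. Gnas-eKO names a knockout of Gnas, the stimulatory G protein subunit, and PKI names an inhibitor of protein kinase A. Each model has 3 libraries of control mice (Con) and 4 of mice with tumours (BCC), 21 libraries in all. SmoM2 mice were sampled on day 29 from induction, those of Gnas-eKO on day 42 and those of PKI on day 57. The labels give neither the promoter or recombinase that drives each alteration, nor the alleles of the Con mice, nor ages. Model, day and batch (A, B and C in the labels) coincide and cannot be told apart, so BCC was compared with Con within a model. In the file headers each library carries an animal name of its own, and in SmoM2 the BCC names have another prefix than the Con names. The SmoM2 Con names have the prefix of the Gnas-eKO names. Within Gnas-eKO and within PKI, Con and BCC names share a prefix, so only in SmoM2 do prefix and tumour coincide. Whether the prefix marks another origin of the mice is not stated.

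Keratins are the intermediate filament proteins of epithelial cells, and a filament needs a type I and a type II chain. Basal cells, which divide, build theirs from the type I chain Krt14 and the type II chain Krt5. Cells that leave the basal layer to differentiate switch on Krt10 (type I) and Krt1 (type II), and Krt2 (type II) follows in higher layers, above all in thick skin such as that of the tail. Krt15 is a type I keratin of basal cells and of the hair follicle bulge. In bulk samples, fewer cells of a type and less RNA per cell cannot be told apart.

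Levels are given in CPM, a gene's counts over a common library size scaled by TMM, which assumes that most genes do not change. Library totals ranged from 16645810 to 22251107 counts, and 3 counts corresponded to at most 0.19 CPM, so even the rarest of the 10 genes (Krt90, with 22 counts or more in every library) was above that floor, which covers counting error only. The 10 genes together held 5.72% to 8.17% of all counts in the 9 Con libraries. SmoM2 tumours had a share of 4.09% to 5.42%, Gnas-eKO tumours 3.44% to 5.69% and PKI tumours 4.16% to 7.13%. The share did not overlap between Con and BCC in SmoM2 and Gnas-eKO and overlapped in PKI. The defining markers of keratinocytes (Krt5, Krt14, Krt1, Krt10, Cdh1, Trp63, Perp and Sfn) were present in all 6 groups. Of these, Krt5, Krt14, Krt1 and Krt10 are also among the 10 genes described. The markers summed to 56059.5 to 72275 CPM in SmoM2 Con and 37728 to 53234 CPM in BCC. In Gnas-eKO the sum was 57031 to 67645 CPM in Con and 28428 to 49645 CPM in BCC. In PKI, where alone the groups overlapped, it was 50500.5 to 67955 CPM in Con and 47178 to 74644 CPM in BCC. Gnas-eKO BCC replicate 2 had the level nearest to the controls for Krt5, Krt14, Krt10, Krt2 and Krt78 among the 4 tumour libraries of its group and was not an outlier by Dixon's criterion. The list and marker counts in Gnas-eKO were not computed without it.

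All 10 genes lie in the keratin clusters of mouse build GRCm38, the 3 type I genes on chromosome 11 and the 7 type II genes on chromosome 15, each on the minus strand. Krt5 (ENSMUSG00000061527.7) spans chromosome 15, 101707070 to 101712898, and Krt14 (ENSMUSG00000045545.8) chromosome 11, 100203162 to 100207548. Krt1 (ENSMUSG00000046834.7) spans chromosome 15, 101845426 to 101850794, with Krt2 (ENSMUSG00000064201.8) at 101810689 to 101818169 and Krt77 (ENSMUSG00000067594.6) at 101858731 to 101869705 on either side of it. Krt10 (ENSMUSG00000019761.10) spans chromosome 11, 99385254 to 99389364, and Krt15 (ENSMUSG00000054146.8) 100131758 to 100135928. Krt78 (ENSMUSG00000050463.9), Krt80 (ENSMUSG00000037185.9) and Krt90 (ENSMUSG00000048699.4) span 101946001 to 101954287, 101347444 to 101370162 and 101552356 to 101562950 on chromosome 15. Krt5, Krt10, Krt80 and Krt90 overlap short antisense or microRNA genes on the other strand over 129, 146, 263 and 138 exonic bases. Whether counting used the strand is not given in the sources used here, so their counts are uncertain to that extent. Members of this family are similar in sequence, and how reads shared between them were counted is not given either.

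The RefSeq promoter table (GRCm38.p6) held entries for 7 of the 10 genes. The 250 bases before the start are shown for the basal gene Krt5 and for 3 suprabasal genes, Krt10, Krt2 and Krt78, because Krt2 and Krt78 showed large changes and Krt5 and Krt78 share a run of letters. Capitals mark TATAAA, GGATAAAAG and CACCC (or its reverse complement GGGTG). Positions are chr15:101712906-101713155 for Krt5, chr11:99389365-99389614 for Krt10, chr15:101818170-101818419 for Krt2 and chr15:101954288-101954537 for Krt78, all on the minus strand.
Krt5: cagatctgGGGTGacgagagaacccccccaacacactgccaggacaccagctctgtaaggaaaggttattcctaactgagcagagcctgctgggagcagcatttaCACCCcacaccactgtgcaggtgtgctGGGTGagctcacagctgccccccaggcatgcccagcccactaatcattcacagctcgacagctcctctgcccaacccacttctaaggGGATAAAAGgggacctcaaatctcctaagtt
Krt10: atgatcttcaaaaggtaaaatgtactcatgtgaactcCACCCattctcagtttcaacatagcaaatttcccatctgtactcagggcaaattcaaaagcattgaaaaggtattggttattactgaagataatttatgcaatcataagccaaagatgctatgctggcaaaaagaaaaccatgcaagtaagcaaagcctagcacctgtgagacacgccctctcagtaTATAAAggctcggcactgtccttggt
Krt2: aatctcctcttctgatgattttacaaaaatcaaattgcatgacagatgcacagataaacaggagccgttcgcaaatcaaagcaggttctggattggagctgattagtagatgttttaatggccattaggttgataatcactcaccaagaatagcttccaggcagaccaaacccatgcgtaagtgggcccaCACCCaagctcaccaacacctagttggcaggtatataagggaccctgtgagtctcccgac
Krt78: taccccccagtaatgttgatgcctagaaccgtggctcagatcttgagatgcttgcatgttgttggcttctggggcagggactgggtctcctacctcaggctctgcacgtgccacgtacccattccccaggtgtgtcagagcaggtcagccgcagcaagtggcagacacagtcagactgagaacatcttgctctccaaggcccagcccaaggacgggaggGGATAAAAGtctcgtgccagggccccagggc
Krt5 and Krt78 both have GGATAAAAG with its first base at -31, and 0.234% of 32851 promoter windows of this length hold that run on either strand. It was searched for after the sequences had been read. Krt10 has TATAAA at -26, which 12.4% of windows hold, and the other 6 windows have no match to these letters. CACCC, the core of sites bound by Klf factors, was present in 5 of the 7 windows (among them that of Krt14, described next) and in 52% of all windows. E-boxes, CANNTG, were in 7 of the 7 windows and in 66.2% of all. The letters GACCACCC, the core of the site bound by the Hedgehog factors of the Gli family, were in none of the 7 windows and in 0.703% of all, and the AP-1 letters TGANTCA were in none of the 7 and in 6.75% of all. The entry for Krt14 starts inside the gene, at a shorter transcript, and is not printed.

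Per kilobase of transcript, which allows levels of different genes to be compared, Krt10 had the highest mean in each Con group, from 8879 CPM per kb in Gnas-eKO to 10361 in SmoM2. Krt14, Krt5, Krt2, Krt1, Krt15, Krt80 and Krt78 followed in that order in all 3 Con groups, and Krt77 and Krt90 were lowest, at 1.78 to 5.43 CPM per kb. The libraries of Krt10 overlapped those of Krt14 in Gnas-eKO Con and PKI Con. In SmoM2 Con the libraries of Krt14 and Krt5 overlapped, as did those of Krt5 and Krt2, of Krt1 and Krt15, and of Krt90 and Krt77. The same 4 pairs overlapped in PKI Con, and Krt1 and Krt15 did in Gnas-eKO Con. In tumours the order changed. Krt5 stood above Krt14 in SmoM2 BCC, at 5748 ± 216 against 3336 ± 191 CPM per kb (SD, n = 4), with no overlap between the libraries. In PKI BCC Krt14 had the highest mean, at 7877 ± 819.9 CPM per kb, with libraries that overlapped those of Krt10 at 6826 ± 3406, and Krt1 reached 5875 ± 2561 CPM per kb (SD, n = 4), next to Krt5 at 5927 ± 74 and with overlapping libraries. The summed level of the 7 type II genes divided by that of the 3 type I genes, per kilobase, was 0.774 to 0.862 in the 9 Con libraries. SmoM2 tumours had 0.993 to 1.098, Gnas-eKO tumours 0.899 to 0.969 and PKI tumours 0.824 to 0.881. In each model all 4 BCC libraries had a higher quotient than the 3 Con libraries of that model. The margin in PKI was very small, with 0.822 in Con replicate 1 and 0.824 in BCC replicate 1. Other keratins, which can pair with these, are not in the sums.

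**Figure D1:**
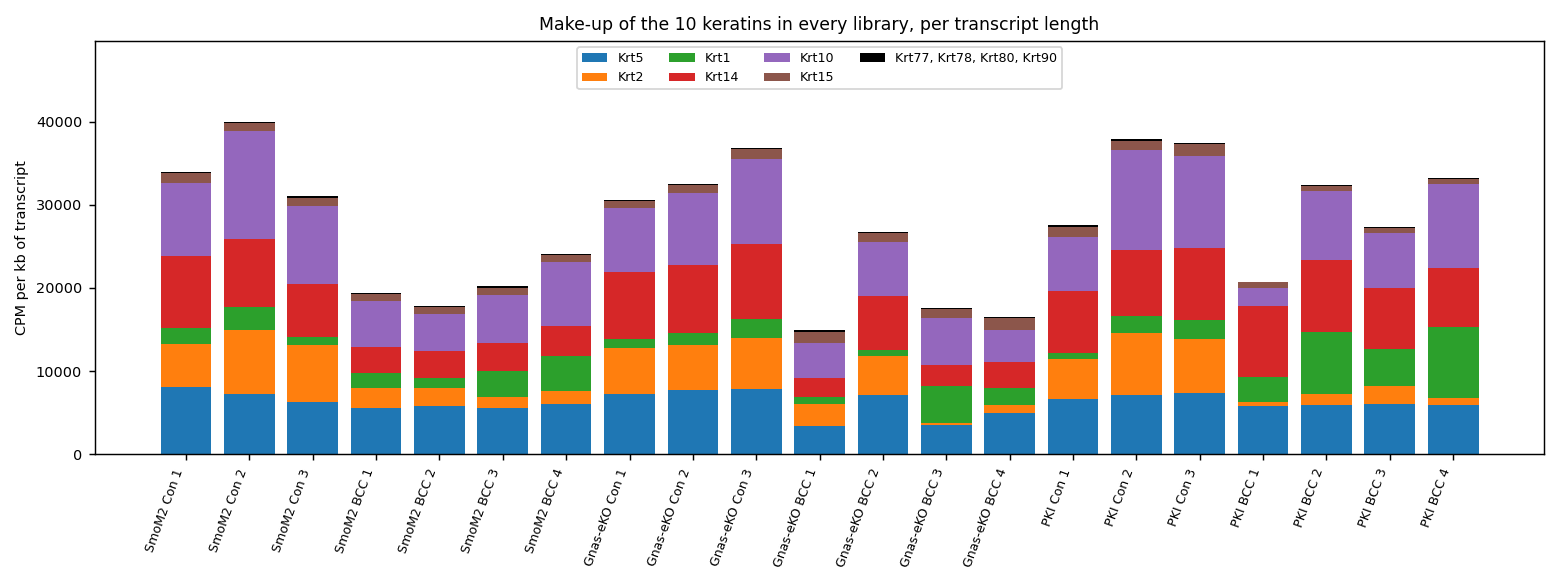
Stacked bars of the level of each keratin in CPM per kilobase of transcript (y axis) in each of the 21 libraries (x axis), type II genes Krt5, Krt2 and Krt1 at the bottom and type I genes Krt14, Krt10 and Krt15 above them. Krt2 (orange) is thinner in each tumour library than in the controls of its model, least so in Gnas-eKO BCC replicate 2, and Krt1 (green) is widest in PKI BCC replicates 2 and 4.

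The question for each model was which of these keratins differ between tumour-bearing and control epidermis. In SmoM2, 6 of the 10 genes were called, with an adjusted p under 0.05 in edgeR's quasi-likelihood test over all genes, and all 6 fell: Krt2, Krt90, Krt14, Krt77, Krt10 and Krt5. Of all genes tested in SmoM2 29.7% were called, 13.5% as lower and 16.2% as higher. In PKI, 6 were called, with Krt2, Krt78, Krt15, Krt80 and Krt5 lower and Krt1 higher, where 34.5% of all genes were called, 15.8% as lower and 18.7% as higher. In Gnas-eKO only Krt90 was called, and it fell, against 1.63% of all genes called, 0.165% as lower and 1.46% as higher. There 5 of the 10 had an unadjusted p under 0.05, as had 3212 of all 16409 genes, and DESeq2 called 4, and 1535 of all 16381 genes. The groups did not overlap for 8 of the 10 genes in SmoM2, against 38.9% of all genes tested. For Gnas-eKO this held for 6 genes, against 19.8%, and for PKI for 6, against 43.2%. The 10 genes had a median log2 fold change of -0.99 in SmoM2, against 0.00054 over all genes tested. For Gnas-eKO these medians were -0.74 and 0.020, and for PKI -0.79 and -0.0012.

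**Figure D2:**
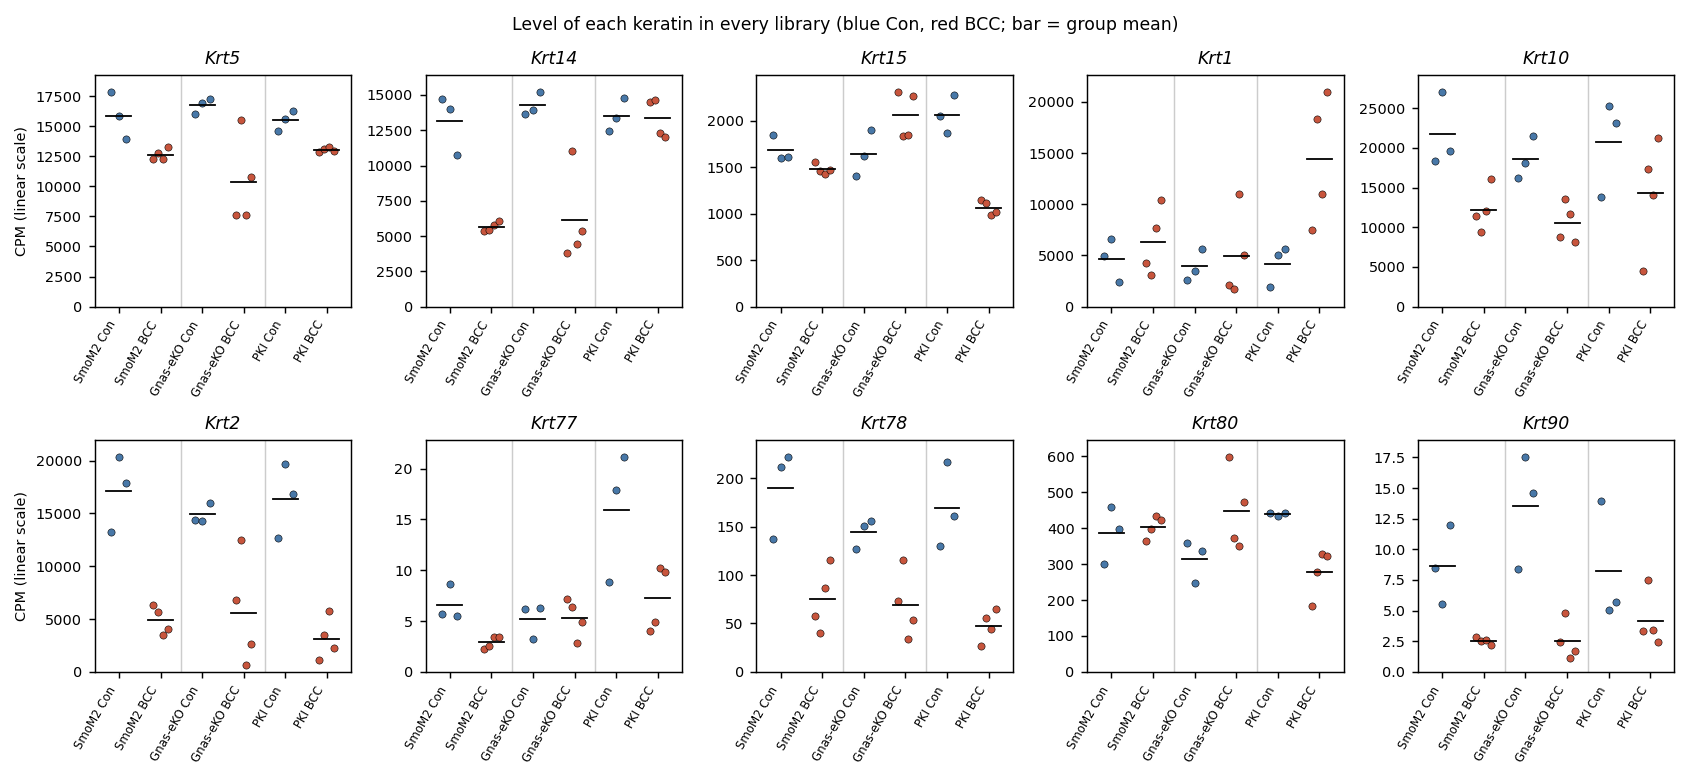
Level of each keratin in CPM on a linear y axis from 0, with a point for each library and a bar for the mean of each of the 6 groups (Con blue, BCC red). Krt14 is low in all 4 SmoM2 BCC libraries (5384 to 6066 CPM) and at control levels in PKI BCC (12042 to 14648), whereas Krt15 is low in PKI BCC (984 to 1149).

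Krt14, the type I chain of basal cells, was at 14749, 14017 and 10750 CPM in SmoM2 Con replicates 1 to 3 and at 5384, 5417, 5791 and 6066 CPM in BCC replicates 1 to 4. All 4 tumours were below all 3 controls, and the log2 fold change was -1.20 (SE 0.11, adjusted p 3.65e-05 in edgeR). Its levels in Gnas-eKO were 13639, 13919 and 15232 CPM in Con and 3830, 11034, 4419 and 5370 CPM in BCC. The tumours were again all below the controls, 3 of them far below and replicate 2 nearer to them. The log2 fold change of -1.19 (SE 0.37, adjusted p 0.132 in edgeR) did not pass the threshold. Without BCC replicate 2 it was -1.63 with an edgeR adjusted p of 0.0046, and the 6 alternatives with all libraries and no replicate block (unblocked below) gave adjusted p-values from 0.00279 to 0.204. In PKI, Krt14 was at 12459, 13344 and 14788 CPM in Con and at 14503, 14648, 12305 and 12042 CPM in BCC. The groups overlapped, and the difference was -0.0029 on the log2 scale (SE 0.11, adjusted p 0.986 in edgeR), or -0.065 to 0.067 when 1 library was left out.

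Krt5, the type II partner of Krt14, was at 17864, 15813 and 13917 CPM in SmoM2 Con and at 12267, 12734, 12257 and 13256 CPM in BCC. It was lower in all 4 tumours, by a smaller amount than Krt14, with a log2 fold change of -0.31 (SE 0.088, adjusted p 0.0239 in edgeR). Its levels in PKI were 14563, 15598 and 16271 CPM in Con and 12864, 13066, 13229 and 12925 CPM in BCC, a log2 fold change of -0.24 (SE 0.074, adjusted p 0.0339 in edgeR). Both calls were near the threshold. In SmoM2 the call was lost in 3 of the 6 unblocked alternatives with all libraries (adjusted p from 0.00364 in DESeq2 to 0.227 in edgeR's joint fit) and without Con replicate 1, Con replicate 2 or any one BCC library (adjusted p 0.0503 to 0.0927). In PKI it was lost in 2 of the 6 (adjusted p 0.00101 to 0.36 over edgeR, limma and DESeq2) and without Con replicate 2, Con replicate 3 or any one BCC library (edgeR adjusted p 0.0523 to 0.145). In Gnas-eKO, Krt5 was at 16002, 16926 and 17279 CPM in Con and at 7577, 15536, 7641 and 10810 CPM in BCC. The tumours were lower with replicate 2 close to the controls, and the log2 fold change of -0.67 (SE 0.303, adjusted p 0.268 in edgeR) did not pass. Without replicate 2 it was -0.92 (adjusted p 0.045 in edgeR).

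Krt15 behaved otherwise than Krt14. Its levels in PKI were 2050, 1866 and 2275 CPM in Con and 1149, 1119, 984 and 1013 CPM in BCC. Every tumour was well below every control, and the log2 fold change was -0.94 (SE 0.095, adjusted p 0.00024 in edgeR). In SmoM2 it was at 1845, 1600 and 1614 CPM in Con and at 1555, 1459, 1430 and 1475 CPM in BCC, with all tumours just below the controls and a log2 fold change of -0.17 (SE 0.072, adjusted p 0.102 in edgeR). That value was -0.044 with total counts in place of TMM (adjusted p 0.719 in edgeR) and -0.11 without Con replicate 1. Its levels in Gnas-eKO were 1404, 1617 and 1905 CPM in Con and 2313, 1839, 1847 and 2269 CPM in BCC, overlapping groups with a log2 fold change of 0.35 (SE 0.19, adjusted p 0.35 in edgeR). Neither model's difference passed the threshold.

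Krt1, the type II keratin that marks the step out of the basal layer, was at 1904, 5016 and 5593 CPM in PKI Con and at 7451, 18292, 10965 and 20985 CPM in PKI BCC. All 4 tumours were above all 3 controls, and the log2 fold change was 1.80 (SE 0.53, adjusted p 0.0414 in edgeR). The call was lost without any one of the 3 Con libraries or without BCC replicate 2, 3 or 4 (edgeR adjusted p 0.0574 to 0.0874, log2 fold change 1.45 to 2.07), and it was lost with no filter on low counts (0.0869) among the 6 unblocked alternatives with all libraries. In SmoM2 it was at 4931, 6572 and 2375 CPM in Con and at 4213, 3055, 7639 and 10449 CPM in BCC. Its levels in Gnas-eKO were 2592, 3520 and 5666 CPM in Con and 2109, 1700, 10968 and 4993 CPM in BCC. The groups overlapped in both models, with log2 fold changes of 0.47 (SE 0.55, adjusted p 0.586 in edgeR) and 0.36 (SE 0.63, adjusted p 0.805 in edgeR). Leaving out 1 library gave 0.12 (without BCC replicate 4) to 0.81 (without Con replicate 2) in SmoM2. For Gnas-eKO the range was -0.40 (without BCC replicate 3) to 0.71 (without Con replicate 3), so the sign turned without BCC replicate 3. It also turned with the replicate number as a block (-0.12).

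Krt10, the type I partner of Krt1, was at 18390, 27070 and 19626 CPM in SmoM2 Con and at 11464, 9348, 12013 and 16040 CPM in BCC. The tumours were all lower, and the log2 fold change was -0.81 (SE 0.2001, adjusted p 0.0186 in edgeR). The call was lost in a joint fit of the 21 libraries (adjusted p 0.097 in edgeR) and without Con replicate 2 or Con replicate 3 (0.0516 and 0.06). Its levels in Gnas-eKO were 16243, 18040 and 21497 CPM in Con and 8794, 13513, 11618 and 8144 CPM in BCC, with no overlap, and its log2 fold change of -0.80 (SE 0.27, adjusted p 0.155 in edgeR) did not pass. Without BCC replicate 2 it was -0.94 (adjusted p 0.0485 in edgeR). Its levels in PKI were 13776, 25257 and 23173 CPM in Con and 4542, 17307, 14074 and 21250 CPM in BCC. The groups overlapped and replicate 1 alone was below all controls, with a log2 fold change of -0.52 (SE 0.51, adjusted p 0.474 in edgeR). Without replicate 1 it was -0.24.

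Krt2, the late type II keratin, had the most negative log2 fold change of the 6 abundant genes in SmoM2 and PKI. In SmoM2 it was at 13255, 20341 and 17918 CPM in Con and at 6350, 5653, 3472 and 4064 CPM in BCC. The tumours lay far below the controls, and Krt2 fell by 1.80 on the log2 scale (SE 0.24, adjusted p 0.00145 in edgeR). Its levels in PKI were 12633, 19695 and 16876 CPM in Con and 1108, 3483, 5763 and 2216 CPM in BCC, and it fell by 2.37 (SE 0.55, adjusted p 0.0189 in edgeR). That call was lost without Con replicate 2 or BCC replicate 4 (edgeR adjusted p 0.051 and 0.0509). Its levels in Gnas-eKO were 14415, 14296 and 16034 CPM in Con and 6786, 12443, 614 and 2607 CPM in BCC. The tumours were all lower but lay far apart, with replicates 3 and 4 lowest, and the log2 fold change of -1.39 (SE 0.77, adjusted p 0.363 in edgeR) did not pass. It was -2.13 without BCC replicate 2 (adjusted p 0.103 in edgeR) and -1.02 without BCC replicate 3.

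Krt78, a type II keratin of the suprabasal layers, was at 129.6, 217 and 161 CPM in PKI Con and at 26.8, 55.8, 44 and 64.5 CPM in BCC. All 4 tumours were below all 3 controls, and Krt78 fell by 1.81 on the log2 scale (SE 0.31, adjusted p 0.00479 in edgeR). It was at 137, 211 and 222 CPM in SmoM2 Con and at 58.1, 39.7, 86.6 and 116 CPM in BCC, lower in all tumours, with a log2 fold change of -1.33 (SE 0.39, adjusted p 0.0509 in edgeR). It passed in 3 of the 6 unblocked alternatives with all libraries (adjusted p 0.00619 to 0.0949 over the 6) and without BCC replicate 4 (adjusted p 0.0213 in edgeR). In Gnas-eKO it was at 127, 151 and 156 CPM in Con and at 73.4, 115, 34.4 and 53.2 CPM in BCC, with no overlap and a log2 fold change of -1.05 (SE 0.34, adjusted p 0.146 in edgeR). Without BCC replicate 2 it was -1.40 (adjusted p 0.0126 in edgeR).

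Krt80, a type II keratin of differentiating epithelia, was at 442, 434 and 443 CPM in PKI Con and at 184, 279, 328 and 323 CPM in BCC. It fell in PKI by 0.64 on the log2 scale (SE 0.18, adjusted p 0.023 in edgeR), with the call lost without any one Con library or BCC replicate 2 (edgeR adjusted p 0.0549 to 0.0656). Its groups overlapped in SmoM2, where Con had 299.9, 459 and 399 CPM and BCC 363, 397, 435 and 421 CPM (log2 fold change 0.081, SE 0.13, adjusted p 0.699 in edgeR). Its sign turned without Con replicate 1 (-0.074). In Gnas-eKO Con had 358, 246 and 337 CPM and BCC 598, 373, 350.3 and 472 CPM, with 3 tumours above all controls and a log2 fold change of 0.54 (SE 0.23, adjusted p 0.238 in edgeR).

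Krt90 was rare, and it was the gene of this family called in Gnas-eKO. There it was at 8.41, 17.5 and 14.6 CPM in Con and at 2.43, 4.82, 1.16 and 1.74 CPM in BCC. All tumours were lower, and it fell by 2.39 on the log2 scale (SE 0.46, adjusted p 0.0475 in edgeR). The call was lost without any one of the other libraries than BCC replicate 2 (edgeR adjusted p 0.0598 to 0.215, log2 fold change -2.65 to -2.16). In SmoM2 it was at 8.46, 5.57 and 12 CPM in Con and at 2.81, 2.55, 2.6 and 2.22 CPM in BCC, and it fell by 1.75 (SE 0.25, adjusted p 0.000667 in edgeR). Its levels in PKI were 13.9, 5.06 and 5.72 CPM in Con and 3.32, 7.48, 3.44 and 2.47 CPM in BCC, overlapping groups with a log2 fold change of -0.97 (SE 0.47, adjusted p 0.151 in edgeR). Without BCC replicate 2 it was -1.42 (adjusted p 0.0362 in edgeR), and without Con replicate 1 it was -0.36 (adjusted p 0.558 in edgeR).

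Krt77, a close relative of Krt1, was rare too. It was at 5.65, 8.62 and 5.46 CPM in SmoM2 Con and at 2.27, 2.55, 3.38 and 3.42 CPM in BCC, and it fell by 1.16 on the log2 scale (SE 0.23, adjusted p 0.00473 in edgeR). In PKI it was at 8.8, 17.8 and 21.1 CPM in Con and at 4.04, 4.9, 10.2 and 9.81 CPM in BCC. The groups overlapped through Con replicate 1, and the log2 fold change of -1.12 (SE 0.41, adjusted p 0.0698 in edgeR) did not pass. It passed without Con replicate 1 (-1.42, adjusted p 0.026 in edgeR) and in 3 of the 6 unblocked alternatives with all libraries (adjusted p 0.00995 to 0.126 over the 6). In Gnas-eKO it was at 6.18, 3.19 and 6.24 CPM in Con and at 7.19, 6.37, 2.8 and 4.88 CPM in BCC, with a log2 fold change of 0.049 (SE 0.37, adjusted p 0.96 in edgeR). Leaving out 1 library gave -0.21 (without Con replicate 2) to 0.26 (without BCC replicate 3), and the sign also turned without BCC replicate 1 or 2.

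**Figure D3:**
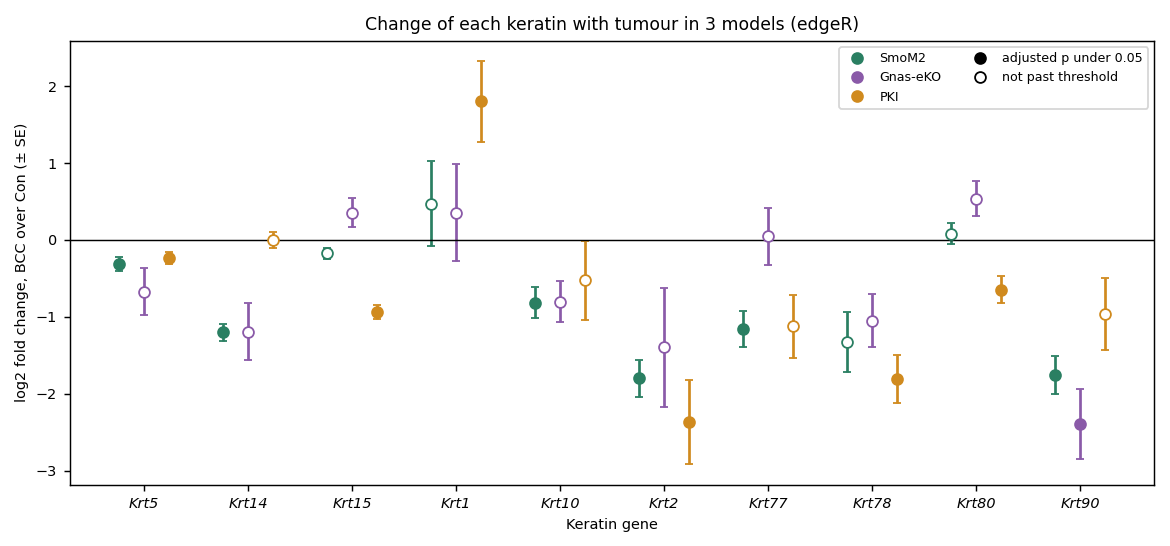
Log2 fold change of BCC over Con with its SE (y axis) for the 10 keratins (x axis) in SmoM2 (green), Gnas-eKO (purple) and PKI (orange), where a filled point has an edgeR adjusted p under 0.05. Krt14 is at -1.20 in SmoM2 and at -0.0029 in PKI, Krt15 is at -0.17 and -0.94, and Krt1 is at 1.80 in PKI.

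Whether the effect of tumour itself differed between models was tested as an interaction on the 14 libraries of each pair. PKI and SmoM2 differed for 3 of the 10 genes, where 24.9% of all genes differed, 12.6% upward in PKI and 12.3% downward. For Krt14 the effect was higher in PKI by 1.20 on the log2 scale (SE 0.15, adjusted p 0.000118 in edgeR). It was lower in PKI by 0.76 for Krt15 (log2 difference -0.76, SE 0.12, adjusted p 0.000471 in edgeR) and by 0.72 for Krt80 (-0.72, SE 0.24, adjusted p 0.0448 in edgeR). PKI and Gnas-eKO differed for Krt15 (-1.29, SE 0.21, adjusted p 0.00325 in edgeR) and Krt80 (-1.18, SE 0.299, adjusted p 0.0271 in edgeR), where 9.06% of all genes differed, 4.49% upward in PKI and 4.57% downward. Krt14 differed by a similar amount there (1.19, SE 0.41, adjusted p 0.0859 in edgeR) and passed in 2 of the 4 unblocked alternatives with all libraries (adjusted p 0.0193 to 0.0905 over edgeR and DESeq2) and without Gnas-eKO BCC replicate 2 (1.63, adjusted p 0.00127 in edgeR). The call of Krt80 between PKI and SmoM2 was lost without any one PKI Con library, SmoM2 Con replicate 1 or 3, SmoM2 BCC replicate 2, 3 or 4, or PKI BCC replicate 2 (edgeR adjusted p 0.0592 to 0.0986), and also with no filter (0.0678) and in the joint fit (0.0835). Between PKI and Gnas-eKO it was lost without Gnas-eKO Con replicate 2, any one PKI Con library or PKI BCC replicate 2 (0.0527 to 0.0817). Between Gnas-eKO and SmoM2 edgeR called 0 of the 10 genes at 0.175% of all genes called (0.0758% higher and 0.0991% lower in Gnas-eKO), with 2 of the 10 at an unadjusted p under 0.05 (1499 of all 17151 genes) and 0 called by DESeq2 (212 of all 17136). The higher effect on Krt1 in PKI was not called in either interaction (1.34, SE 0.78, adjusted p 0.242 in edgeR against SmoM2, and 1.45, SE 0.85, adjusted p 0.313 in edgeR against Gnas-eKO). Leaving out 1 library gave 0.99 to 1.69 against SmoM2 and 1.10 to 2.204 against Gnas-eKO, the highest without Gnas-eKO BCC replicate 3 (adjusted p 0.0741 in edgeR).

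Ratios of the counts of 2 genes in a library do not depend on how libraries are scaled. They were compared for 4 pairs in 3 models, 12 tests in all, by a two-sided exact permutation test over 35 splits, whose smallest p is 0.0571, so no ratio could pass 0.05. The ratio of the 2 basal partners differed from its controls in opposite directions, upward in SmoM2 and Gnas-eKO and downward in PKI. Krt5 to Krt14 was 1.21, 1.13 and 1.29 in SmoM2 Con and 2.28, 2.35, 2.12 and 2.19 in BCC, a log2 difference of 0.88 (exact permutation p 0.0571, adjusted p 0.114). In Gnas-eKO it was 1.17, 1.22 and 1.13 in Con and 1.98, 1.41, 1.73 and 2.01 in BCC, a log2 difference of 0.59 with the same p. In PKI it was 1.17, 1.17 and 1.10 in Con and 0.887, 0.892, 1.075 and 1.073 in BCC, a log2 difference of -0.23 with the same p. The 7 libraries of each model did not overlap between Con and BCC, and Gnas-eKO BCC replicate 2, at 1.41, was also above its controls.

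Krt1 to Krt10, the suprabasal partners, was 0.138, 0.199 and 0.241 in PKI Con and 1.64, 1.06, 0.779 and 0.988 in BCC, a log2 difference of 2.52 (exact permutation p 0.0571, adjusted p 0.114). In SmoM2 it was 0.268, 0.243 and 0.121 in Con and 0.367, 0.327, 0.636 and 0.651 in BCC, a log2 difference of 1.25 with the same p. All tumours were above all controls in both models. In Gnas-eKO the groups overlapped, with 0.16 to 0.264 in Con and 0.126 to 0.944 in BCC (log2 difference 0.85, exact permutation p 0.457, adjusted p 0.499), and the difference was 0.39 without BCC replicate 3 and 1.36 without BCC replicate 2. The ratio of Krt1 to Krt5 was higher in all 4 PKI tumours, from 0.579 to 1.62 against 0.131 to 0.344 in Con (log2 difference 2.07, exact permutation p 0.0571, adjusted p 0.114), and overlapped in SmoM2 (0.73, exact permutation p 0.286) and Gnas-eKO (0.76, exact permutation p 0.571). The SmoM2 value was 0.41 without Con replicate 3. For Gnas-eKO it was 0.12 without BCC replicate 3 and 1.35 without BCC replicate 2. The ratio of Krt10 to Krt14 overlapped between Con and BCC in all 3 models, with a log2 difference of 0.37 in SmoM2 and 0.497 in Gnas-eKO (exact permutation p 0.171 in both) and of -0.68 in PKI (exact permutation p 0.4). Without Con replicate 1 the SmoM2 value was 0.17, and without BCC replicate 3 the Gnas-eKO value was 0.32. The PKI value moved to -0.15 without BCC replicate 1, whose ratio was 0.313 against 1.14 to 1.76 in the other 3 tumours.

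**Figure D4:**
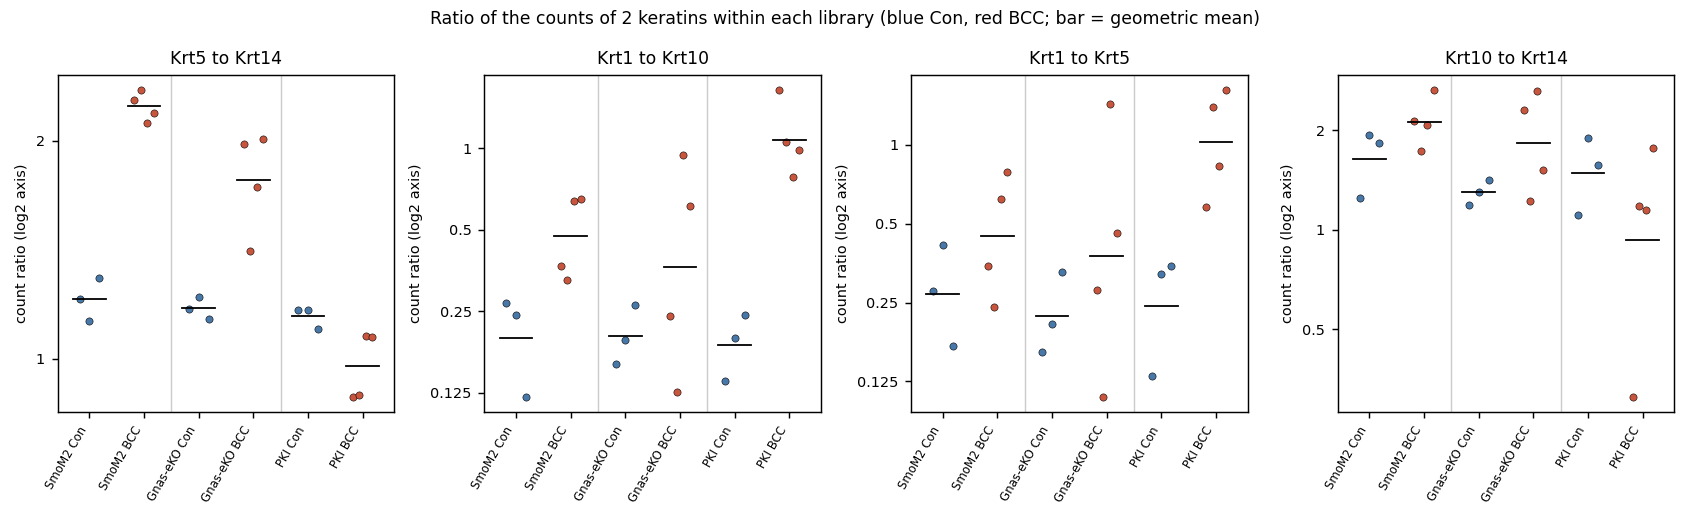
Ratio of the counts of 2 keratins in each library on a log2 y axis, with a bar for the geometric mean of each of the 6 groups (Con blue, BCC red). Krt5 to Krt14 is above its controls in SmoM2 and Gnas-eKO BCC and below them in PKI BCC, and Krt1 to Krt10 is above its controls in SmoM2 and PKI BCC.

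Markers of other cell types and states moved in the same libraries, and their part in these results was not tested. In PKI, 6 of 7 leukocyte markers, 4 of 7 markers of the inner root sheath and hair shaft, and all 4 wound and outer root sheath keratins (Krt6a, Krt6b, Krt16 and Krt17) were called higher, where 18.7% of all genes were. The wound keratins summed to 1775 to 1899 CPM in PKI Con and 11068 to 23470 CPM in BCC, leukocyte markers to 32.3 to 103 and 223 to 453 CPM, and the hair markers to 16.4 to 200.5 and 1141 to 1481 CPM. In SmoM2, Krt17 was the wound keratin called higher, and the 4 summed to 1848 to 3092 CPM in Con and 6486 to 10232 CPM in BCC. Fibroblast markers summed to 17.2 to 39.8 CPM in SmoM2 Con and 388 to 524 CPM in BCC, to 16 to 27.4 and 93.3 to 578 CPM in Gnas-eKO, and to 15.8 to 43.4 and 84.4 to 145 CPM in PKI. In Gnas-eKO edgeR called 0 of the 4 wound keratins, with 4 at an unadjusted p under 0.05 and 3 called by DESeq2, and they summed to 2091 to 2804 CPM in Con and 2707 to 8018 CPM in BCC. Of the 6 fibroblast markers, SmoM2 had 2 called higher (16.2% of all genes), Gnas-eKO 1 (1.46%) and PKI 3 (18.7%). In Gnas-eKO 5 of the 6 had an unadjusted p under 0.05 (3212 of all 16409 genes), and DESeq2 called 5 (1535 of all 16381). Endothelial markers together were at most 4.44 CPM in any library, with Emcn at 0 in SmoM2 Con. Melanocyte markers were called lower for 2 of 5 genes in SmoM2 and 4 of 5 in PKI, beside 13.5% and 15.8% of all genes. The hair markers had 1 of 7 called lower in SmoM2, where they summed to 120 to 296 CPM in Con and 21.8 to 151 CPM in BCC. Of the 8 keratinocyte markers, 5 were called lower and 1 higher in SmoM2 (13.5% and 16.2% of all genes). In PKI 1 was called lower and 2 higher (15.8% and 18.7%). In Gnas-eKO edgeR called 0 of the 8, with 3 at an unadjusted p under 0.05 and 3 called by DESeq2.

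Other genes of the epidermal programme were followed in 4 lists of 10. Of the genes of desmosomes and keratin attachment, cadherins included, 9 were called lower in SmoM2 and 1 higher. In PKI 6 were called lower and 1 higher, beside 13.5% of all genes called lower in SmoM2 and 15.8% in PKI. Their median log2 fold changes were -0.61 and -0.35. Dsc1, a desmosomal cadherin of the suprabasal layers, had the lowest value in SmoM2 (-1.37, SE 0.18, adjusted p 0.000874 in edgeR), and Ppl, a plakin that links desmosomes to keratin, in PKI (-0.86, SE 0.15, adjusted p 0.0032 in edgeR). Dsg3, the desmosomal cadherin of the basal layer, was the gene called higher in both (0.52 and 0.47). Of the cornified envelope and late differentiation genes, 7 were called lower in SmoM2 (13.5% of all genes), 4 in PKI (15.8%) and 1 in Gnas-eKO (0.165%), and none higher, with medians of -1.12, -0.55 and 0.080. Flg2 was lowest in SmoM2 (-2.47, adjusted p 0.0268 in edgeR), Lor, the main protein of the cornified envelope, in PKI (-2.35, adjusted p 0.00122 in edgeR), and the crosslinking enzyme Tgm3 in Gnas-eKO (-1.21, adjusted p 0.0475 in edgeR).

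Of the genes that anchor basal cells to the basement membrane through hemidesmosomes, 4 were called lower and 1 higher in SmoM2 (13.5% and 16.2% of all genes), and 6 lower in PKI (15.8% of all genes), with medians of -0.13 and -0.57. Itga6 was lowest in SmoM2 (-0.57, adjusted p 0.00161 in edgeR), where Lamb3 was the gene called higher (0.53, adjusted p 0.00563 in edgeR), and Dst, the plakin that holds keratin to the hemidesmosome, was lowest in PKI (-1.27, adjusted p 0.00834 in edgeR). Of the transcription factors, 5 were called lower and 1 higher in SmoM2, with a median of -0.31. In PKI 2 were lower and 2 higher, near the 15.8% and 18.7% of all genes called, with a median of 0.23. Trp63, the regulator of the basal state, was the one called higher in SmoM2 (0.48, adjusted p 0.00356 in edgeR), and Grhl3, which acts in late differentiation, was lowest (-1.22, adjusted p 0.00213 in edgeR). The called genes with the highest and lowest value in PKI were Klf5 (0.29, adjusted p 0.00829 in edgeR) and Klf4 (-0.54, adjusted p 0.00861 in edgeR). In Gnas-eKO edgeR called 0 of the 10 hemidesmosome genes, 0 of the 10 desmosome genes and 0 of the 10 transcription factors, with 2, 3 and 3 at an unadjusted p under 0.05 and 0, 2 and 2 called by DESeq2.

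The genes whose level over the 21 libraries was most like that of each keratin were listed by Pearson's r of log2 CPM among 12030 genes, as a description with no test, since the libraries share groups, batches and depth. The top genes were Klk13 (0.894) and Fetub (0.863) for Krt1, Tex2 (0.947) and Wwp1 (0.942) for Krt2, Mettl7a3 (0.921) and Jpt2 (0.918) for Krt5, and Otop3 (0.9098) and Ttpa (0.867) for Krt10. They were Pgm1 (0.953) and Vps25 (0.947) for Krt14, Itga4 (0.8900) and Dcaf6 (0.883) for Krt15, and Skint10 (0.899) and Vwa5a (0.874) for Krt77. For Krt78 they were Ctnnbip1 (0.957) and Dgat2 (0.952), for Krt80 Arid4b (0.835) and Tnrc6c (0.813), and for Krt90 Nuak2 (0.919) and C030006K11Rik (0.909). No gene was on the list of more than 1 keratin.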

How the data were processed

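Bulk RNA of tail keratinocytes was sequenced in 21 libraries, from a stranded mRNA preparation per the labels' protocols. The submitters' processing notes name bcl2fastq 2.20, cutadapt 1.18, STAR 2.7.0f, Partek and build mm10, with no role given. The authors deposited estimated counts per gene, of which 32.4% are not whole (tolerance 1e-09), with no gene under 10 counts over all libraries, and a TMM-normalized signal table, used here in alternatives. Counts were rounded. Gene models came from GENCODE M21, where 22908 of 23713 genes have the same name and start. Levels per kilobase used the coding transcript with the longest coding sequence.

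Within each model, genes were filtered by filterByExpr, scaled by TMM and fitted in R 4.3.3 by edgeR 4.0.16 (robust quasi-likelihood test, Benjamini-Hochberg over all genes tested, threshold 0.05), and differences between models as interaction contrasts over 14 libraries. Only the edgeR fits were also run on simulated counts. Those were drawn with the same dispersion for all genes, and they do not cover the other tests. The SE is the log2 fold change over the square root of F. Ratios were tested with scipy 1.17.1, adjusted over 12 tests. Alternatives were DESeq2 1.42.0, its size factors, totals without TMM, limma 3.58.1 on the authors' signal (log2 of the value plus 1), no filter, a joint fit, the replicate number as a block and leaving out each library. Every pair of libraries of a group differed by more than counting error, with a chi-square of at least 8.93 times its degrees of freedom.

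The members, lists and tests were chosen with earlier results of these data known. All 10 members were named, with, from each list and model, the called genes with the highest and lowest change, and per member the 2 genes most like it with a mean log2 CPM (prior count 2) of at least 2.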

Additional observations from a re-analysis of the deposited data

Results flagged for a closer look

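A test of the difference between models found 5 differences in the effect of tumour. Between PKI and SmoM2 these were Krt14 (log2 difference 1.20), Krt15 (-0.76) and Krt80 (-0.72), and 3 of 10 is near the 24.9% of all genes that differed. Between PKI and Gnas-eKO they were Krt15 (-1.29) and Krt80 (-1.18), 2 of 10 where 9.06% of all genes differed. No library was an outlier by Dixon's criterion in the 42 groups of 4 values examined, where chance gives about 1 in 20. With 4 values that criterion finds 1 library far from a tight group of 3, so it does not bear on how far results depend on a single library such as Gnas-eKO BCC replicate 2.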

How the results depend on the processing

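The count of the 10 genes called in Gnas-eKO was 1, and it moved to 4 with DESeq2, to 3 in the joint fit of all libraries and to 0 with the replicate block, and leaving out 1 library gave 0 to 5. Without BCC replicate 2 the 5 genes were Krt5, Krt10, Krt14, Krt78 and Krt90. Over all genes 267 were called there, with 1535 in DESeq2, 2644 in the joint fit, 135 with the replicate block and 0 to 1910 when 1 library was left out. Leaving out 1 library gave 2 to 5 of the 10 genes in PKI and 4 to 6 in SmoM2 (6 each with all libraries), beside 4057 to 5466 and 3613 to 4627 of all genes (5653 and 4860 with all libraries), and 1 to 3 for the difference between PKI and Gnas-eKO (2 with all libraries). Over all genes the difference between PKI and Gnas-eKO was called for 1564 genes, with 2389 in DESeq2, 925 with the replicate block and 673 to 2512 when 1 library was left out, and that between Gnas-eKO and SmoM2 for 30, with 212 in DESeq2, 66 in the joint fit and 14 to 79 when 1 was left out. The cause was not tested. No called keratin changed direction under any alternative run. Without TMM the median of all genes moved to 0.13 in SmoM2, and the calls there were 3860 higher and 1319 lower, against 2646 and 2214 with TMM.

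Same-numbered Con and BCC libraries had correlations of their deviations from -0.13 to 0.28, not all over 0.1 in any model. Replicates 2 and 3 in Gnas-eKO (0.18 and 0.10) and 1 and 3 in PKI (0.28 and 0.19) were highest with their own number. The other replicates were not. These correlations do not settle whether Con and BCC libraries were paired. With the replicate block, 53 of the 60 tests on single keratins kept their outcome, whether called or not. Most of the 60 had not been called without the block, so this share does not show how well calls held. The block removed 4 calls, all within a model, and added 3. Krt5 in SmoM2 (edgeR adjusted p 0.0601), Krt90 in Gnas-eKO (0.0641) and Krt2 and Krt5 in PKI (0.0581 and 0.0804) were not called, and Krt78 in SmoM2 (0.0233) and Krt10 and Krt77 in PKI (0.0291 and 0.00122) were. The log2 differences of the ratios kept their direction with the block.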
